A study of Mus musculus with 32 samples.

Results

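Type I interferon response genes are the subject here: 36 genes that cells switch on when type I interferon binds its receptor, followed across tumours of mice that received sunitinib, an inhibitor of the VEGF, PDGF and related receptor tyrosine kinases, or its vehicle. They were found on the array by the RefSeq accession of each probe, and 34 of the 36 were matched, among 20145 genes with a named probe. Mx1 and Mx2, the myxovirus resistance GTPases, were not matched and have no value here. Where a gene had several probes, as 9 of the 34 did, the probe with the highest mean over all 32 arrays was used. A level below is the log2 of the background-subtracted spot signal minus the log2 of the 75th percentile of its array, so that 0 marks a spot as bright as that percentile. A difference is in log2 units too, and levels of different genes are not set against each other, because probes differ in brightness for reasons other than RNA amount. By the scanner software's own call, 33 of the 34 genes were well above background on every array, and Ifnb1, the interferon beta gene, on 25 of the 32.

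The tumours were grown in female Balb/C mice aged 8 weeks, a strain with an intact immune system, by placing 4T1-Luc cells in the mammary fat pad; 4T1 is a mouse mammary carcinoma line, and Luc stands for luciferase. After 1 week of tumour growth the mice received sunitinib at 40 mg/kg in PBS with DMSO, or the drug vehicle alone. At a tumour size of 1300 mm3 there were 4 mice labelled resistant to sunitinib up to day 8, 4 treated mice labelled sensitive over the same days, and 4 vehicle mice. Each of these tumours gave an endothelial cell (EC) fraction, taken with beads against the endothelial surface protein PECAM-1, and a bulk fraction, the digested tissue that was left. Bulk tumours were also taken at day 9 and at 600 mm3, each from 2 sunitinib mice, all labelled sensitive, and 2 vehicle mice. With 2 mice a group the spread is estimated from few arrays, and no label says on which day a tumour reached its size. The 1 protocol given for all samples digests tissue in the presence of actinomycin D, an inhibitor of transcription.

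Type I interferons are cytokines of the first line of antiviral defence. Interferon beta and the interferon alphas bind the receptor IFNAR1-IFNAR2, and the kinases JAK1 and TYK2 then activate a complex named ISGF3, which holds STAT2 and IRF9 and binds interferon-stimulated response elements in promoters. Its targets include sensors of foreign nucleic acid, enzymes that block viral RNA, ubiquitin-like ISG15 and its machinery, and the chemokine CXCL10, and IRF7 among them feeds back on interferon production. In tumours the response is known from cancer cells, endothelial cells and immune cells, macrophages and dendritic cells above all.

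Promoter windows, 250 bases before to 50 bases after the start of a gene, were given in the RefSeq table of build GRCm38.p6 for 26 of the 36 genes. The core of the interferon-stimulated response element, GAAANNGAAA, searched on both strands, stood in 12 of those 26 windows (46.2%), against 1079 of all 27025 genes with a window (3.99%). The 12 are Bst2, Cxcl10, Eif2ak2, Ifih1, Ifit1, Ifit3, Isg15, Oas1a, Oas3, Rsad2, Stat2 and Trim30a. The palindrome TTCNNNGAA, bound by STAT dimers, stood in 5 of 26 windows (19.2%), against 9.55% of all genes. No window was at hand for Mx1, Mx2, Oas2, Dhx58, Usp18, Rtp4, Parp9, Parp14, Zbp1 and Ifi27l2a. A match is a stretch of letters, and no binding was measured. Below are 5 windows, each from 5′ to 3′ on the gene's own strand, in lower case with the matches to GAAANNGAAA in capitals: Stat2 and Eif2ak2, which rose in the EC fraction of resistant tumours, Rsad2, which fell at 600 mm3, Isg15, whose window holds the most matches of these, and Ifnb1, the ligand, which holds none. A match on the other strand reads TTTCNNTTTC. The windows lie at chr4:156200769-156201068 (minus strand) for Isg15, chr10:128270248-128270547 (plus strand) for Stat2, chr12:26456403-26456702 (minus strand) for Rsad2, chr17:78882523-78882822 (minus strand) for Eif2ak2 and chr4:88522745-88523044 (minus strand) for Ifnb1. Counted from the start of the gene, with the base before it as -1, the 3 overlapping matches of Isg15 run from -78 to -57, the match of Stat2 from -222 to -213 and that of Rsad2 from -120 to -111, while that of Eif2ak2 lies after the start, from 19 to 28.
Isg15: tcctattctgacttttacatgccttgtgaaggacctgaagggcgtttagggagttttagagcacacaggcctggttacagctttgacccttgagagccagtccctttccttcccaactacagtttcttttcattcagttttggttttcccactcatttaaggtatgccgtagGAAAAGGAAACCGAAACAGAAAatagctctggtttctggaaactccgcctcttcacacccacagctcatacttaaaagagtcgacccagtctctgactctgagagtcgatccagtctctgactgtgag
Stat2: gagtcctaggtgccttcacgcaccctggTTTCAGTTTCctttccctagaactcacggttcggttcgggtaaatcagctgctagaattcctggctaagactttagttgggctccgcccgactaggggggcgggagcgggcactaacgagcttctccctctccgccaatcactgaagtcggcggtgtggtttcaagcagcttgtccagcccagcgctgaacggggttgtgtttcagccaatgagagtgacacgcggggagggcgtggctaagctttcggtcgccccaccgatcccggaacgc
Rsad2: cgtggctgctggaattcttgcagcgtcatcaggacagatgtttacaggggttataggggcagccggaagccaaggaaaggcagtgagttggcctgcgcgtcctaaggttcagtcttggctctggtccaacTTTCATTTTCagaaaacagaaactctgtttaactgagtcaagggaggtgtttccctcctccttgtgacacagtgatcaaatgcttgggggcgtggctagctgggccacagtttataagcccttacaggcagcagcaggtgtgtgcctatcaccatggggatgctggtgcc
Eif2ak2: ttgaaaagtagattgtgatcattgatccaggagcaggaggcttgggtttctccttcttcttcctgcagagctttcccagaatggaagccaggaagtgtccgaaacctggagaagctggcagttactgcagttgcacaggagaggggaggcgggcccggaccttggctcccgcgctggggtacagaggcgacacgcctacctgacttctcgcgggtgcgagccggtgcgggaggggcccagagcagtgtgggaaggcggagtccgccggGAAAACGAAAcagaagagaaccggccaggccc
Ifnb1: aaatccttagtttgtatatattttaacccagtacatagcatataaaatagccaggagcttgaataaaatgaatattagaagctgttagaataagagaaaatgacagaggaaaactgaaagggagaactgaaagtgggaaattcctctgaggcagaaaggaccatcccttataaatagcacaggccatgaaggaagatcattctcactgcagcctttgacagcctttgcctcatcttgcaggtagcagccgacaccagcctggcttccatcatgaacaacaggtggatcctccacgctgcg

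The arrays differed in how much of them could be read. On the EC arrays of resistant tumours 46.1% to 52.9% of probes were well above background, against 79.9% to 86.4% for sensitive and 80.3% to 82.2% for vehicle tumours, and 55.3% to 83.4% on all bulk arrays at 1300 mm3. All 8 arrays of resistant tumours, EC and bulk, lay on 1 slide of their own, and the sensitive and vehicle arrays of each fraction on another, so that slide and resistance cannot be told apart. On the slides that hold sunitinib and vehicle arrays together these lay in different columns, and column and treatment cannot be told apart either. The EC arrays carried their labelled cells, with 17 of 18 endothelial markers higher than in bulk and a median difference of 4.59, but all 15 macrophage markers measured were higher there as well, with a median difference of 2.21.

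Over the 10 groups, by the scaling used here, most of the interferon genes were lowest in sunitinib tumours at 600 mm3, and more were highest in resistant EC than in any other group. Of the 33 genes measured on every array, 25 had their lowest group mean in sunitinib tumours at 600 mm3. The highest group mean was that of resistant EC for 18 genes and that of sunitinib tumours at day 9 for 11. The median level of the genes was 1.32 and 1.67 on the 2 sunitinib arrays at 600 mm3, against 3.02 and 3.08 on the vehicle arrays. It was 2.92 and 3.06 with sunitinib at day 9, against 2.35 and 2.96 with vehicle. In the EC fraction it ran from 2.79 to 3.31 in resistant tumours, from 2.24 to 2.63 in sensitive and from 2.20 to 2.82 in vehicle tumours. In bulk at 1300 mm3 the ranges of the 3 groups overlapped, at 2.50 to 3.00 in resistant, 1.98 to 2.93 in sensitive and 2.24 to 2.83 in vehicle tumours. In these samples fewer cells of a type that expresses a gene and less RNA per cell cannot be told apart.

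**Figure D1:**
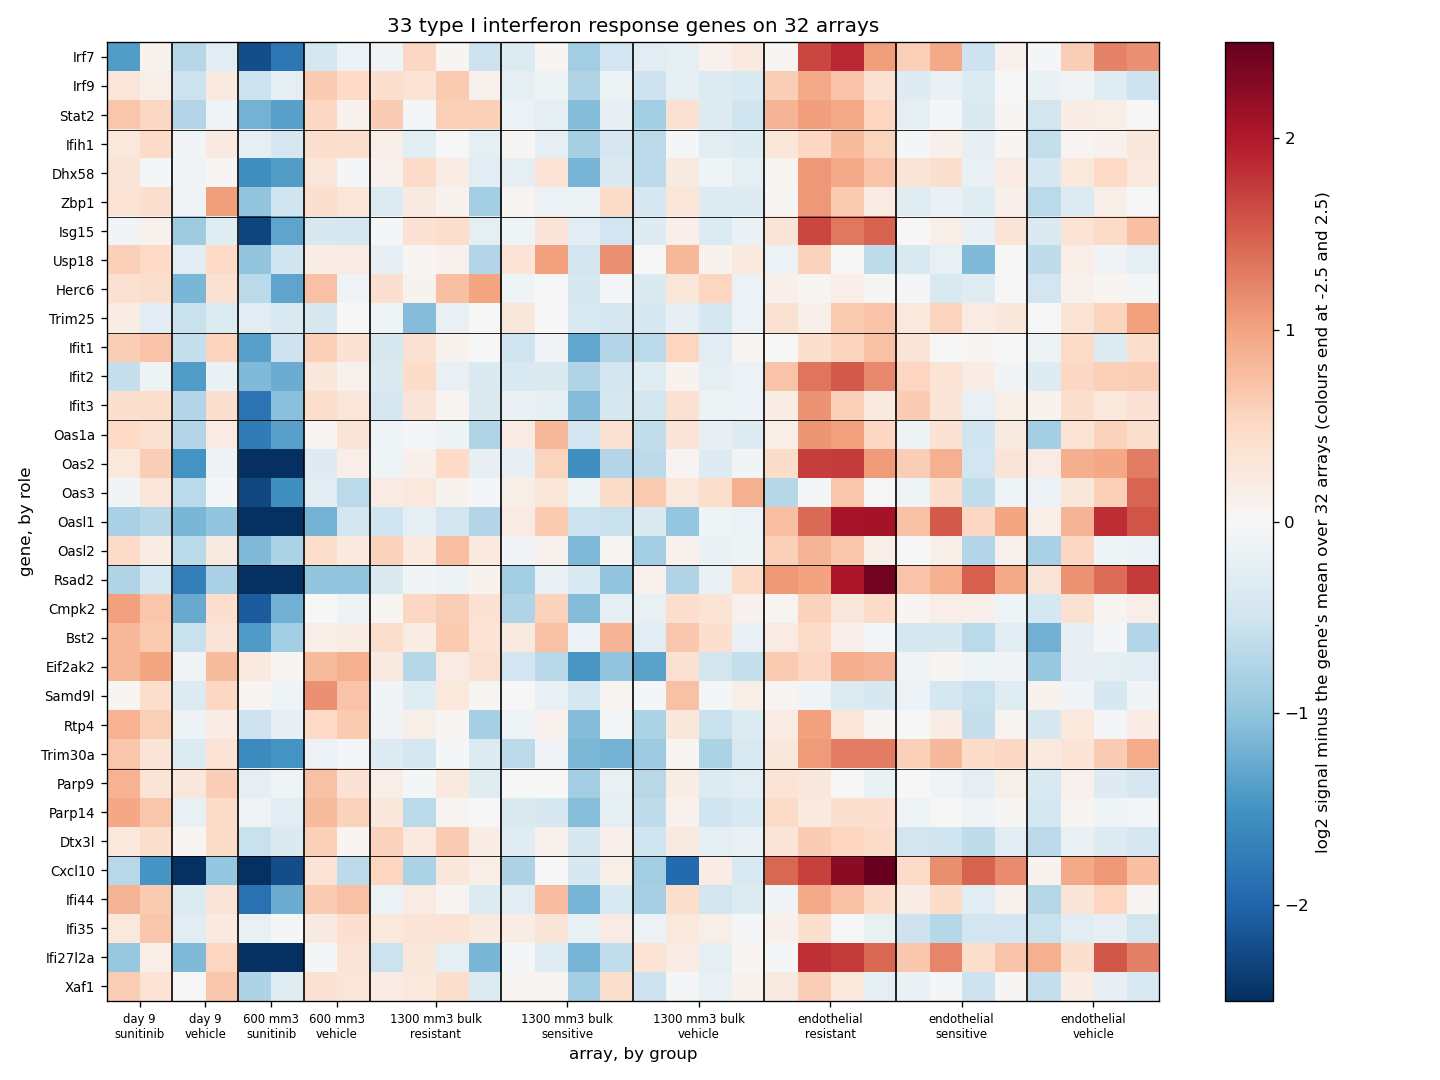
Levels of the 33 genes measured on all 32 arrays, as the log2 signal minus the gene's own mean over the arrays (colour), with a row for each gene grouped by role and a column for each array grouped by tumour. The 2 sunitinib columns at 600 mm3 are blue for most genes, and 3 of the 4 resistant endothelial columns are red for most.

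At day 9, sunitinib tumours had higher values than vehicle tumours for most of the genes, but none passed the test. Of the 33 genes 30 had a positive difference, with a median of 0.504 and a range from -0.159 for Irf7 to 1.29 for Cmpk2, against a median of -0.006 over all genes tested. In limma fitted across all genes, with a Benjamini-Hochberg adjusted p under 0.05 as threshold, 0 of the 34 genes and 0% of all 17443 genes were called at day 9. At an unadjusted p under 0.05 there were 5 of the 34 and 1162 of all 17443 genes. Both sunitinib arrays lay above both vehicle arrays for 18 of the 33 genes, where 18.8% of all genes did so. The smallest p were those of Stat2, a subunit of ISGF3, Rtp4, an interferon-induced chaperone and antiviral protein, and Oas2, a 2'-5' oligoadenylate synthetase that activates RNase L. Stat2 had levels of 3.87 and 3.70 in sunitinib tumours, against 2.45 and 3.1 in vehicle tumours. The groups did not overlap, and the vehicle arrays were farther from each other than the sunitinib arrays. The difference of Stat2 was 1.01 (SE 0.30, limma adjusted p = 0.736). Oas2 had 2.30 and 2.64 in sunitinib tumours, against 0.54 and 1.90 in vehicle tumours, a difference of 1.25 (limma adjusted p = 0.736). Rtp4 had a difference of 0.71, at the same adjusted p. One vehicle mouse lay far below the other, and this array was the lower vehicle value for Stat2, Oas2, Ifi44, Isg15 and Cxcl10 alike. Without that array the median difference of the genes was 0.131, and over all single arrays left out it ran from 0.131 to 0.850.

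At 600 mm3 the direction was the opposite: all 33 genes measured on every array were lower in sunitinib tumours, and 6 fell past the threshold. The median difference was -1.37 and the range -3.97 to -0.12, while the median over all genes was 0.063 and 43.6% of all genes were lower. Both sunitinib arrays lay below both vehicle arrays for 32 of the 33, where 23.3% of all genes did so. With limma, 6 of the 34 genes fell and 0 rose, where 1.65% of all genes were called in either direction, 1.11% as lower and 0.533% as higher. At an unadjusted p under 0.05 there were 30 of the 34 and 2346 of all 17443 genes.

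Ifi27l2a, which encodes a small interferon-induced membrane protein, had the largest difference. Its levels were 0.75 and 1.74 in sunitinib tumours, against 5.02 and 5.40 in vehicle tumours. The groups lay far apart, and it fell by 3.97 (SE 0.63, limma adjusted p = 0.0372). Oas2 had -1.43 and -0.75 in sunitinib tumours, against 1.70 and 2.21 in vehicle tumours. It fell by 3.04 (SE 0.48, limma adjusted p = 0.0372), with a gap between the groups wider than the spread in either. Ifi44, an interferon-induced cytoplasmic protein, had 0.81 and 1.42 in sunitinib tumours, against 3.30 and 3.40 in vehicle tumours, and fell by 2.24 (SE 0.32, limma adjusted p = 0.0319). Rsad2, which encodes viperin, an enzyme that makes a chain-terminating nucleotide, had -2.58 and -2.01 in sunitinib tumours, against -0.12 on both vehicle arrays. It fell by 2.18 (SE 0.36, limma adjusted p = 0.0408). The other calls were Oasl1, an OAS-like inhibitor of Irf7 translation in mice, which fell by 1.94, and Dhx58, which encodes the RNA sensor LGP2 and fell by 1.59 (limma adjusted p = 0.0372 and 0.0383). By role, 2 of 5 OAS genes, 1 of 3 sensor genes, 1 of 7 other antiviral effectors and 2 of 5 other induced genes fell, and none of the 3 transcription factors, 3 IFIT genes, 4 genes of the ISG15 system or 3 genes of the PARP and DTX3L group did.

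Stat2 did not pass. It had levels of 2.00 and 1.82 in sunitinib tumours, against 3.68 and 3.26 in vehicle tumours, a difference of -1.56 (SE 0.30, limma adjusted p = 0.0566). The difference was -1.75 for Oas1a, the next synthetase, -1.71 for Irf7, the factor that amplifies interferon production, and -1.39 for Isg15 (limma adjusted p = 0.0655, 0.158 and 0.139). It was -2.21 for Cxcl10, -1.42 for Ifit1, which binds viral RNA caps, and -0.96 for Irf9 (limma adjusted p = 0.191, 0.194 and 0.223). Ifnb1 was well above background on only 1 of the 4 arrays at 600 mm3 and 1 of the 4 at day 9, so no difference is given for it. Leaving out any 1 of the 4 arrays at 600 mm3 left 0 genes called, as each leaves a group of 1 array, while leaving out a day 9 array left up to 9. Over all 8 such fits the median difference of the genes stayed between -1.46 and -1.05. The call of Ifi44 held under all 11 other settings of the processing, and that of Oas2, Oasl1 and Dhx58 under the other scalings. All calls but that of Ifi44 were lost with no filter, where more genes were tested. That of Ifi27l2a was also lost with quantile scaling, and that of Rsad2 with the percentile over probes above background on all arrays. Dhx58 lost its call with the replicate block as well.

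**Figure D2:**
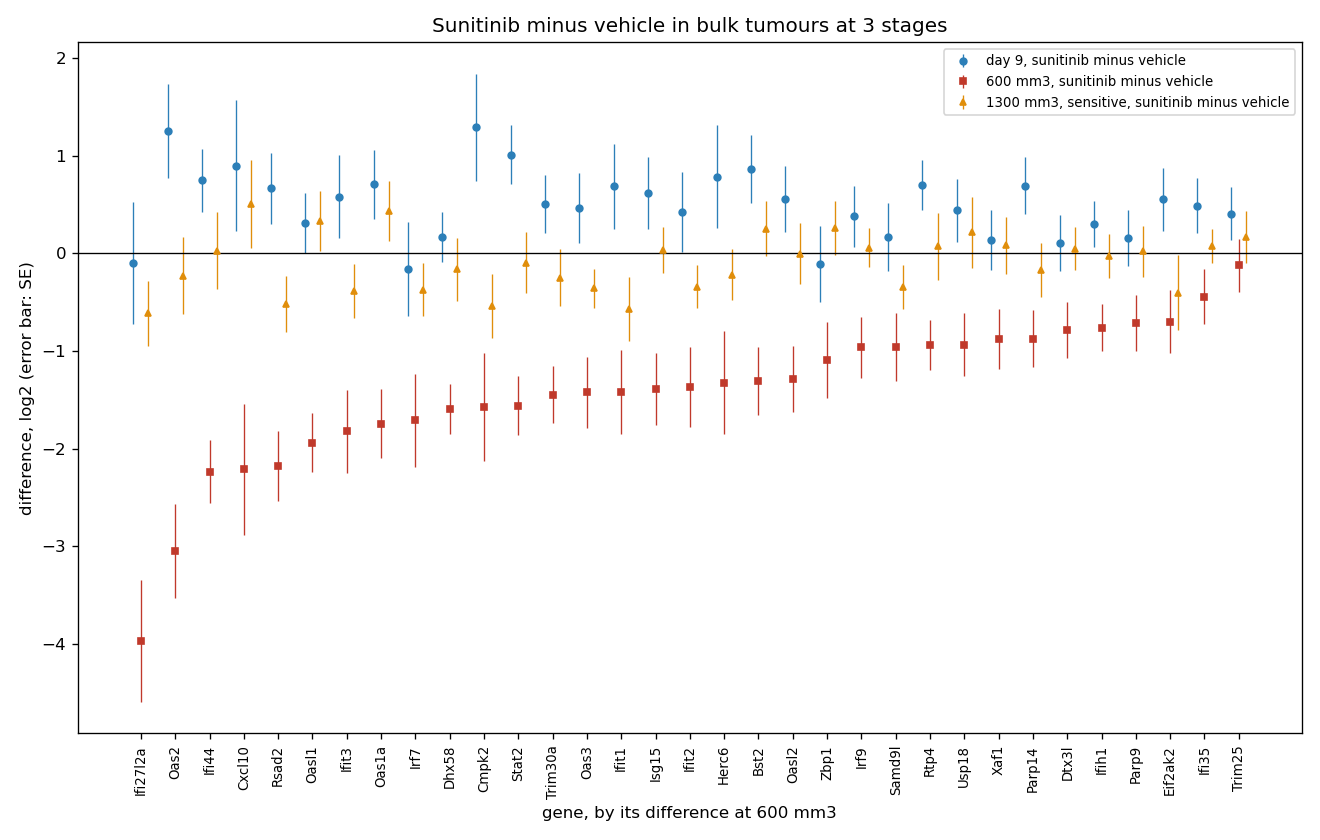
Sunitinib minus vehicle difference in bulk tumours for 33 genes (log2, error bars are limma's SE), ordered by the difference at 600 mm3. Day 9 and 600 mm3 have 2 mice a group. Sensitive tumours at 1300 mm3, where bulk is the tissue left after the PECAM-1 beads, have 4 mice a group. All 33 squares of 600 mm3 lie below 0, 30 of the 33 circles of day 9 lie above it, and the triangles of 1300 mm3 lie on both sides.

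Markers of several cell types, but not of all, were lower in the sunitinib tumours at 600 mm3 too. The mean level of 15 macrophage markers was 1.40 to 2.22 on the sunitinib arrays, against 3.25 to 3.36 on the vehicle arrays, with 3 of 15 called lower and all 15 negative. The mean of 18 endothelial markers was -1.07 to -0.95 with sunitinib, against 0.30 to 0.72 with vehicle (4 of 18 called lower), and that of 17 T and NK cell markers -1.46 to -1.10 against -0.27 to 0.14 with 0 called. Mural cell markers averaged -1.96 to -1.84 with sunitinib, against -0.36 to -0.34 with vehicle (4 of 11 called lower and 1 higher), and conventional dendritic cell markers -3.57 to -3.34 against -2.41 to -1.56 (1 of 9 tested called lower). The 8 plasmacytoid dendritic cell markers went the other way, at -0.37 to 0.07 with sunitinib and -0.78 to -0.62 with vehicle, with 1 called higher. Fibroblast markers averaged 1.38 to 1.65 with sunitinib, against 1.85 to 2.78 with vehicle, and B and plasma cell markers -5.09 to -5.07 against -4.73 to -4.64. The 15 tumour epithelial markers overlapped, at 2.16 to 3.02 with sunitinib and 2.62 to 2.97 with vehicle, as did neutrophil markers, at -0.07 to 0.92 and -0.39 to 0.84. At day 9 the macrophage mean was 2.21 to 3.30 with sunitinib and 2.94 to 3.1 with vehicle. The part of these cells in the interferon values was not tested.

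At 1300 mm3 the bulk fraction of sensitive tumours showed neither direction. The genes split into 15 positive and 18 negative differences from vehicle, with a median of -0.028, where the median of all genes was 0.072. With limma 0 of the 34 genes and 0% of all 16969 genes were called. An unadjusted p under 0.05 was found for 875 of all 16969 and 0 of the 34. The smallest p were those of Ifi27l2a, Rsad2 and Oas3, with differences of -0.61, -0.52 and -0.36 (limma adjusted p = 0.9999 for each). The 3 stages were set against each other through the difference of their sunitinib effects, but the tissue was not alike. At 1300 mm3 bulk is what was left after the PECAM-1 beads, while the smaller tumours gave no EC fraction. Endothelial markers averaged -3.19 to -1.55 in sensitive and -2.93 to 0.93 in vehicle bulk at 1300 mm3, against -1.07 to 0.88 in the smaller tumours. Stage and this step cannot be told apart. The effect at 600 mm3 minus that at day 9 was negative for all 33 genes, with a median of -1.84 and a range of -4.30 to -0.53. It was called for 0 of the 34 with limma, where 0.189% of all genes were called. An unadjusted p under 0.05 was found for 25 of the 34 and 2371 of all 17443 genes. The smallest adjusted p among the 34 was 0.0809, and that of Stat2, with a difference of effects of -2.57 (SE 0.43), was 0.0933. The effect in sensitive bulk at 1300 mm3 minus that at 600 mm3 was positive for all 33 genes, with a median of 1.15, and minus that at day 9 it was negative for 31 of 33, with a median of -0.559. In limma over the 20 bulk arrays both had 0 genes called among the 34 and 0% among all genes. An unadjusted p under 0.05 was found for 20 and 5 of the 34, and for 979 and 545 of all 18565 genes. The 8 arrays of the smaller tumours lay on 1 slide and those at 1300 mm3 on others, so only effects within a slide enter these differences. Averaged over day 9 and 600 mm3, sunitinib minus vehicle was called for 0 genes, and the median was -0.371 over the 33. Its unadjusted p was under 0.05 for 7 of the 34 and 1619 of all 17443 genes.

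In the EC fraction at 1300 mm3 the genes were higher in resistant tumours than in vehicle tumours. The largest rises were those of Ifnb1, the chemokine gene Cxcl10, the kinase gene Eif2ak2, the ISGF3 gene Irf9, Isg15 and Dtx3l, followed by the ISGF3 gene Stat2. In all, 13 of the 34 genes rose and 0 fell, where 44.5% of all 17946 genes were called in either direction, 17.6% as higher and 26.9% as lower. Of the 33 genes measured on every array 30 had a positive difference, with a median of 0.467 and a range of -0.562 for Oas3 to 1.25 for Cxcl10, and the median of all genes was 0.029. Over the 12590 genes above background on every EC array, a set more like these, the median was 0.26. Of those 12590 genes 4410 were called, 3290 as higher. All 4 resistant arrays lay above all 4 vehicle arrays for 9 of the 33, where 15.6% of all genes did so. By role, the ligand, 2 of 3 transcription factors, 2 of 3 sensors, 2 of 3 genes of the PARP and DTX3L group, 1 of 3 IFIT genes, 1 of 4 genes of the ISG15 system, 2 of 7 other antiviral effectors, 2 of 5 other induced genes and 0 of 5 OAS genes rose.

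Ifnb1 was well above background on all 12 EC arrays. Its levels were 0.46, 1.41, 2.31 and 2.89 in resistant EC, against -2.27, -0.05, -0.41 and -0.70 in sensitive EC and -1.36, -0.88, 0.01 and 0.16 in vehicle EC. The lowest resistant array lay above every array of the other groups, and resistant arrays were spread widely, with a mean of 1.77 ± 1.06 against -0.52 ± 0.73 in vehicle EC (SD, n = 4 each). Ifnb1 rose by 2.28 over vehicle (SE 0.58, limma adjusted p = 0.00697) and by 2.62 over sensitive tumours (SE 0.58, limma adjusted p = 0.00301).

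Of the ISGF3 genes, Irf9 had levels of 3.92, 4.26, 4.01 and 3.69 in resistant EC, against 2.98, 3.13, 2.96 and 3.30 in sensitive EC and 3.14, 3.23, 3.00 and 2.79 in vehicle EC. Resistant arrays lay above all others, and those of sensitive and vehicle tumours overlapped. The difference from vehicle was 0.93 (SE 0.17, limma adjusted p = 0.000727). Stat2 had 4.03, 4.22, 4.13 and 3.72 in resistant EC, against 2.95, 3.12, 2.82 and 3.21 in sensitive EC and 2.73, 3.36, 3.34 and 3.18 in vehicle EC, with resistant arrays again apart. It rose by 0.87 over vehicle (SE 0.19, limma adjusted p = 0.00247) and by 1.00 over sensitive tumours (limma adjusted p = 0.000929). Irf7 did not pass, with a difference of 0.41 from vehicle (limma adjusted p = 0.468), and its resistant arrays, at 1.61, 3.25, 3.48 and 2.64, overlapped the vehicle arrays at 1.55, 2.20, 2.83 and 2.74.

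Among the effectors, Eif2ak2, which encodes PKR, the kinase that halts translation on double-stranded RNA, had levels of 1.57, 1.42, 1.80 and 1.75 in resistant EC, against 0.83, 0.97, 0.79 and 0.85 in sensitive EC and -0.05, 0.70, 0.67 and 0.63 in vehicle EC. The groups of resistant and sensitive arrays were each narrow, and 1 vehicle array lay low. It rose by 1.15 over vehicle (SE 0.19, limma adjusted p = 0.000301). Dtx3l, the ubiquitin ligase that pairs with PARP9, had 3.20, 3.52, 3.41 and 3.33 in resistant EC, against 2.42, 2.38, 2.23 and 2.59 in sensitive EC and 2.22, 2.71, 2.55 and 2.46 in vehicle EC. Its resistant arrays stood above the rest, and it rose by 0.88 over vehicle (SE 0.16, limma adjusted p = 0.000567), with 0.864 by its other probe. Cxcl10, a ligand of CXCR3 that draws T cells, had 5.44, 5.72, 6.25 and 6.46 in resistant EC, against 4.48, 5.16, 5.47 and 5.18 in sensitive EC and 4.09, 4.94, 5.08 and 4.74 in vehicle EC. Resistant arrays lay above all vehicle arrays and the lowest lay just under the highest sensitive array, with a mean of 5.97 ± 0.47 in resistant and 4.71 ± 0.44 in vehicle EC (SD, n = 4 each). The difference from vehicle was 1.25 (SE 0.30, limma adjusted p = 0.00443).

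Isg15 depended on the probe. By the brighter probe its levels were 5.48, 6.83, 6.49 and 6.63 in resistant EC, against 5.18, 5.32, 5.01 and 5.48 in sensitive EC and 4.80, 5.52, 5.65 and 5.92 in vehicle EC, with 1 resistant array among the vehicle values. The rise over vehicle was 0.89 (SE 0.30, limma adjusted p = 0.0318), and the difference by the other probe was 0.126 (limma adjusted p = 0.769). The remaining calls against vehicle were Ifit2, an IFIT protein gene, Bst2, which encodes tetherin, Zbp1, a sensor of Z-form nucleic acid, Ifih1, which encodes the RNA sensor MDA5, Parp14 and Ifi35, with rises of 0.46 to 0.85. The other probes of Ifih1 and Zbp1 gave 0.464 and 0.554 without passing (limma adjusted p = 0.160 and 0.0834). Rsad2, Oas1a and Ifit1 did not pass, with differences of 0.49, 0.58 and 0.30 (limma adjusted p = 0.298, 0.171 and 0.286).

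Leaving out single arrays, the 13 calls became 8 to 14, and they were 8 without resistant mouse 2 or vehicle mouse 2. Ifnb1, Cxcl10, Dtx3l, Eif2ak2, Irf9, Stat2, Ifit2 and Parp14 were called in all 12 such fits. Under 4 other scalings all called genes of the 34 rose too, in numbers from 6 to 10. Normexp called 10 of the 34 higher beside 5400 of all 17946 genes, which is no larger a share. Quantile scaling called 7 beside 3011 of all genes, and the deposited values 7 beside 3186. The percentile over probes above background on all arrays called 6 beside 920. The 6 genes Ifnb1, Cxcl10, Dtx3l, Eif2ak2, Irf9 and Stat2 kept their call in every setting. Scaling moved the median of all genes, from -0.258 with the percentile over probes above background on all arrays to 0.235 with normexp background correction, so the median of the interferon genes was taken relative to it: it was 0.44 by the array percentile used here and at least 0.121 under the other scalings. The share of all called genes that were higher was 39.6% here and 13.7% to 73.0% under the other scalings.

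Against sensitive tumours, resistant EC had 11 of the 34 genes higher and 0 lower, where 44.0% of all genes were called, 15.5% as higher and 28.5% as lower. All 33 genes measured everywhere had a positive difference, with a median of 0.564 and a range of 0.083 to 1.11, and for 11 the resistant arrays lay above all sensitive ones, where 17.0% of all genes did. The median over the 12590 genes above background on every EC array was 0.259, and 2901 of them were called higher. Isg15 rose by 1.11 and Ifit2 by 0.95 over sensitive tumours (limma adjusted p = 0.0108 and 0.00876). The other probe of Isg15 gave 0.432 (limma adjusted p = 0.282), and the call of Isg15 was also lost with quantile scaling and with the mean of all probes. Dtx3l and Irf9 rose by 0.96 and 0.88 and kept their call in every setting. Cxcl10 rose by 0.89, but its call was lost under all 4 other scalings, with a difference down to 0.40. The differences of Irf7, Oas1a, Rsad2 and Ifit1 were 0.87, 0.71, 0.63 and 0.32 and did not pass (limma adjusted p = 0.124, 0.0997, 0.183 and 0.255). Without resistant mouse 1 the 11 calls became 17. Both comparisons share the resistant arrays, so their values are set side by side only. Sensitive tumours against vehicle had 0 of the 34 genes and 0% of all genes called in limma. An unadjusted p under 0.05 was found for 864 of all 17946 genes and 0 of the 34. The genes had 14 positive and 19 negative differences there, with a median of -0.079, and Ifnb1 had a difference of -0.34. The smallest p were those of Eif2ak2, Oas3 and Samd9l, with differences of 0.37, -0.65 and -0.25.

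**Figure D3:**
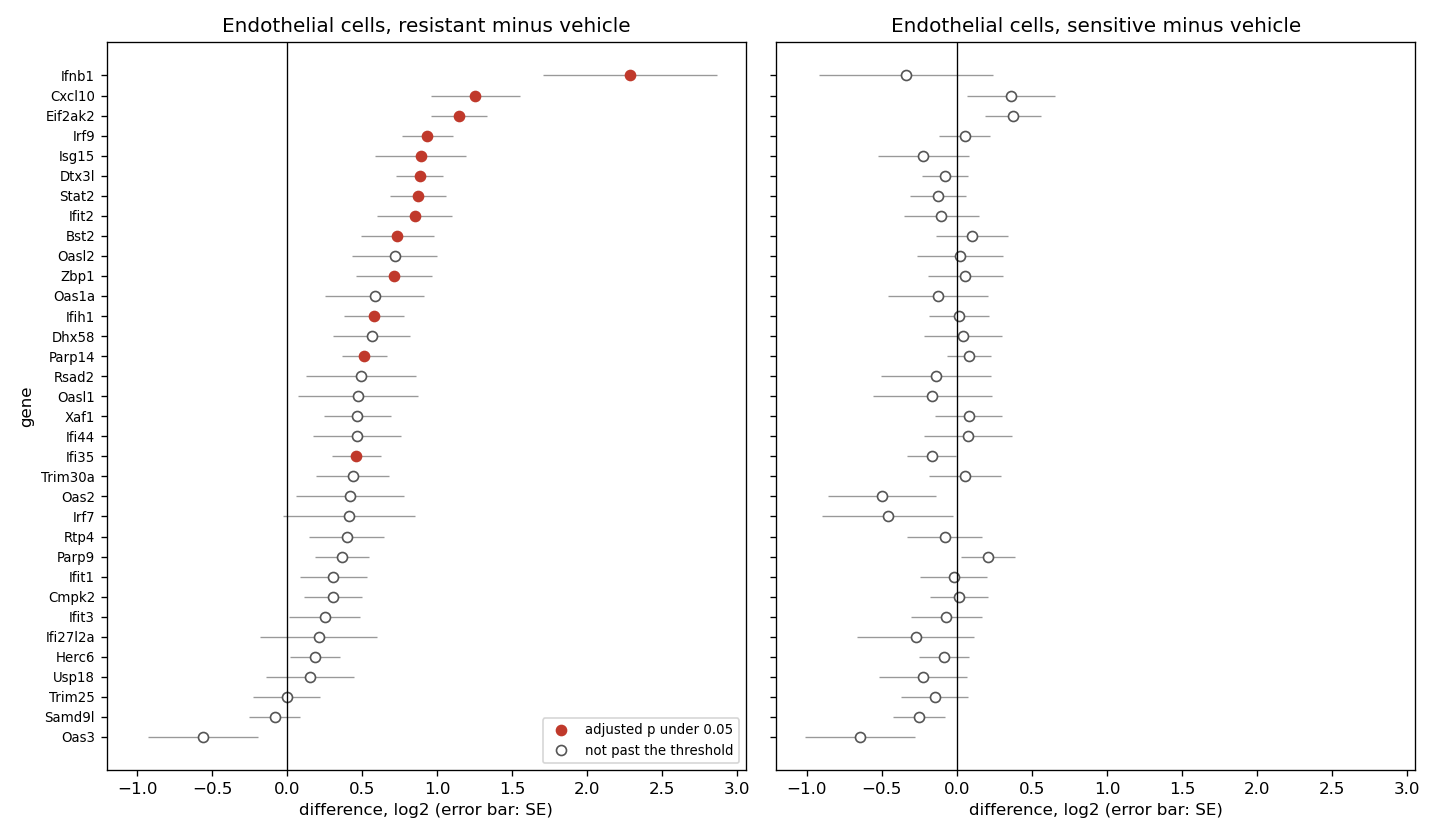
Differences of 34 genes in the EC fraction at 1300 mm3 (log2, error bars are limma's SE, 4 mice a group), resistant minus vehicle on the left and sensitive minus vehicle on the right, with filled points for an adjusted p under 0.05. On the left 13 points are filled, led by Ifnb1 at 2.28, and on the right none is.

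**Figure D4:**
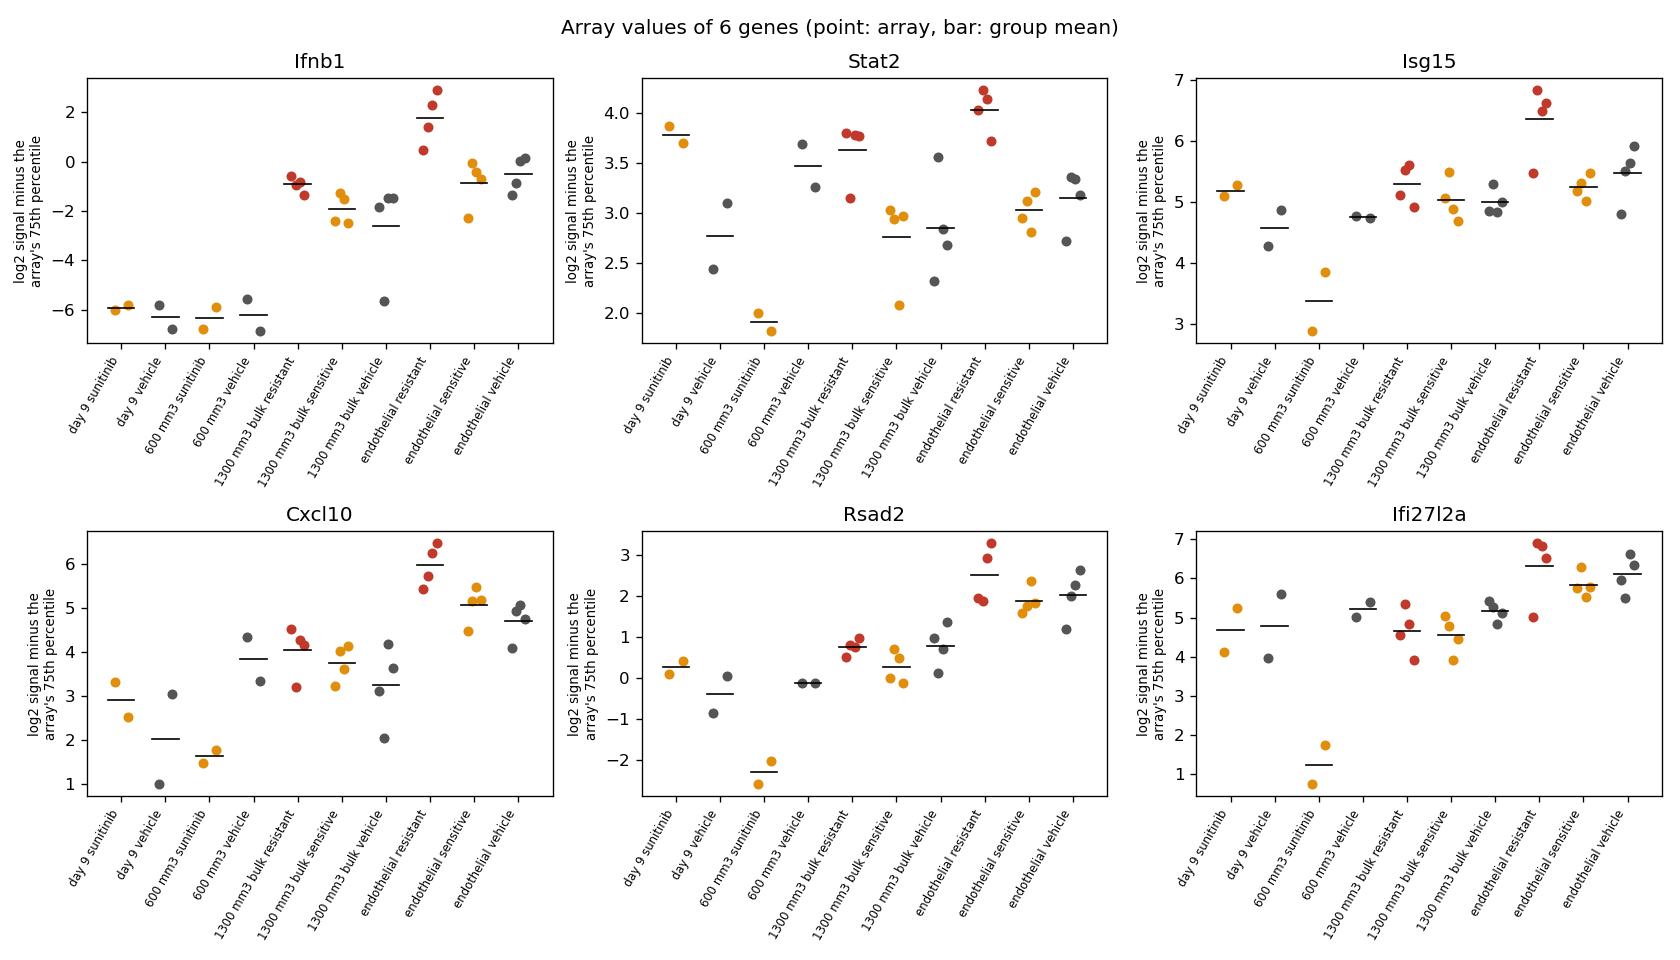
Level of 6 genes on each of the 32 arrays (log2 units relative to each array's 75th percentile; points are arrays and bars are group means), with sunitinib, resistant and sensitive groups left of their vehicle group. Rsad2, Ifi27l2a, Stat2 and Isg15 are lowest in sunitinib tumours at 600 mm3, and Ifnb1, Cxcl10 and Isg15 are highest in resistant EC; Ifnb1 was well above background on 2 of the 8 arrays of the smaller tumours.

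The macrophage markers did not separate these groups fully. Their mean level was 3.43 to 5.56 in resistant EC, 3.74 to 4.54 in sensitive EC and 3.00 to 4.57 in vehicle EC, all 15 were higher in resistant than in vehicle EC by value, and 3 passed the test. Resistant mouse 1, with the lowest macrophage mean of its group, also had the lowest level of its group for 19 of the 34 genes and for 7 of the 13 called ones: Ifnb1, Cxcl10, Isg15, Dtx3l, Ifit2, Ifih1 and Zbp1. The same array had the highest endothelial, mural, fibroblast and tumour epithelial means of its group, at 2.74, 0.77, 2.45 and 2.85. Resistant mouse 4, with a macrophage mean of 5.48, was lowest for 11 of the 34 genes and 4 of the 13. Mouse 2, with a macrophage mean of 5.02, was lowest for 4 of the 34 and 2 of the 13. Endothelial markers averaged 2.11 to 2.74 in resistant, 2.79 to 3.74 in sensitive and 2.41 to 2.79 in vehicle EC. The 8 markers of plasmacytoid dendritic cells, known as strong producers of interferon alpha, averaged -0.93 to -0.47 in resistant and -0.19 to 0.29 in vehicle EC. The part of these cells in the rises was not tested.

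In the bulk fraction of resistant tumours none of the genes passed. Against vehicle 23 of the 33 were positive with a median of 0.242, and against sensitive tumours 26 of 33 with a median of 0.302. With limma 0 of the 34 were called in either, where 6.52% and 9.94% of all genes were called. An unadjusted p under 0.05 was found for 4 and 7 of the 34, and for 3596 and 4390 of all 16969 genes. Resistant arrays lay above all vehicle arrays for 2 of the 33 (6.27% of all genes) and above all sensitive arrays for 5 (7.08% of all genes). Irf9 came nearest, with levels of 3.73, 3.65, 3.96 and 3.42 in resistant bulk, against 3.09, 3.19, 2.55 and 3.18 in sensitive bulk and 2.79, 3.09, 2.96 and 2.94 in vehicle bulk. Its resistant arrays lay above all others, with differences of 0.75 from vehicle and 0.69 from sensitive bulk (limma adjusted p = 0.0509 and 0.0539). Dtx3l and Stat2 differed by 0.58 and 0.77 from vehicle (limma adjusted p = 0.160 and 0.187). Without resistant mouse 2, the calls were 2 against vehicle and 4 against sensitive tumours, and the counts among all genes in these fits are not given here. On the bulk array of this mouse 83.4% of probes were well above background, against 55.3% to 58.7% on the other resistant bulk arrays.

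Ifnb1 in bulk had levels of -0.59, -0.96, -0.82 and -1.34 in resistant tumours, against -2.43, -1.26, -1.53 and -2.49 in sensitive and -1.82, -5.67, -1.49 and -1.49 in vehicle tumours. Its resistant arrays lay above 3 of the 4 sensitive arrays and all vehicle arrays, and the vehicle array at -5.67 was not well above background. The resistant minus vehicle effect in EC minus that in bulk was positive for 31 of the 33 genes, with a median of 0.248. Of all genes 47% were positive. The effect was called for 0 of the 34 in limma, where 0.197% of all genes were called. The count moved with scaling: 32 of the 34 were positive here, 20 with quantile scaling, 21 with the deposited values, 31 with normexp. It was 22 with the percentile over probes above background on all arrays. Relative to the median of all genes, the median of the 34 was 0.293 with either percentile. It was -0.03 with quantile scaling, 0.024 with the deposited values and 0.041 with normexp. By the array percentile used here, the unadjusted p was under 0.05 for 3 of the 34 and 2702 of all 18280 genes. For Ifnb1 the difference of effects rested on the vehicle mouse whose bulk array was not well above background: it was 0.59 with that mouse and 1.49 without both of its arrays (SE 0.90 and 0.70, limma adjusted p = 0.788 and 0.490). The same for the sensitive effect had 16 positive and 17 negative values and 0 genes called, where 0% of all genes were called. Its unadjusted p was under 0.05 for 1 of the 34 and 669 of all 18280 genes.

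Within mice, the EC fraction had higher levels of most of the genes than the bulk fraction of the same tumour. In resistant tumours both fractions lay on 1 slide, but in the 8 sensitive and vehicle mice EC and bulk lay on different slides, so that there fraction and slide cannot be told apart. With mouse as a block over 12 mice, 20 of the 34 genes were higher in EC and 3 lower, where 49.4% of all 18280 genes were called, 21.2% as higher and 28.2% as lower. The median difference over the 33 genes was 0.387, and that of all genes -0.063. Rsad2 averaged 2.50 ± 0.70 in EC and 0.75 ± 0.19 in bulk of resistant tumours, 1.88 ± 0.34 and 0.27 ± 0.39 in EC and bulk of sensitive tumours, and 2.01 ± 0.61 and 0.79 ± 0.52 in EC and bulk of vehicle tumours (SD, n = 4 each). It was higher in EC in 12 of 12 mice, by 0.22 to 2.31 within a mouse, with a mean difference of 1.53 (SE 0.17, limma adjusted p = 4.81e-05). Cxcl10 was higher in 12 of 12 mice, by 0.90 to 2.89, with a mean of 1.57 (SE 0.20, limma adjusted p = 0.000111). Ifnb1 was higher in 12 of 12 as well, by 0.16 to 4.79, the largest from vehicle mouse 3, on whose bulk array it was not well above background. Without both arrays of that mouse its mean difference was 1.65 (SE 0.28, limma adjusted p = 0.000894), and with them 1.95.

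Further genes higher in EC in 12 of 12 mice were Oasl1 with 1.52, Ifi27l2a with 1.30, Trim30a, a TRIM protein gene induced by interferon, with 1.22, Oas2 with 1.03, Irf7 with 0.88 and Ifit3 with 0.57. All 3 IFIT genes, 3 of 5 OAS genes and 2 of 3 sensor genes were called higher, but of the ISGF3 genes neither Irf9 nor Stat2 was, with 0.16 and 0.32 (limma adjusted p = 0.196 and 0.0517). The 3 genes lower in EC were Bst2, lower in 11 of 12 mice with -0.60, Ifi35, a partner of NMI, lower in 11 of 12 with -0.45, and Usp18, the protease that removes ISG15 and dampens receptor signalling, lower in 9 of 12 with -0.42. The other probes of Ifih1 and Oas1a gave 0.032 and 0.237 and did not pass.

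By treatment, 17 of the 34 genes were higher in EC than in bulk of resistant tumours and 0 lower (25.2% of all genes called, 11.6% as higher and 13.5% as lower). In sensitive tumours 10 were higher and 3 lower (31.8% of all genes called, 13.0% as higher and 18.7% as lower). In vehicle tumours 7 were higher and 1 lower (22.8% called, 10.3% as higher and 12.5% as lower). Among the 17 of resistant tumours, the other probes of Ifih1, Zbp1 and Oas1a gave 0.235, 0.301 and 0.506 without passing (limma adjusted p = 0.498, 0.310 and 0.0987). That of Isg15 passed, with 0.754 (limma adjusted p = 0.0255). The resistant EC and bulk arrays lay on the same slide. Fitted on it alone, 922 of all 14243 genes were called, 668 of them as higher. In that fit 4 of the 17 were called: Oasl1 with 2.06, Cxcl10 with 1.92, Rsad2 with 1.75 and Ifit2 with 1.32 (limma adjusted p = 0.0396, 0.0404, 0.0401 and 0.0440). The counts moved with single mice, to 9 without resistant mouse 3 or 4, for sensitive tumours to 6 without sensitive mouse 4 and 8 without mouse 5, and for vehicle tumours to 3 without vehicle mouse 4 or 5, 5 without vehicle mouse 3 and 13 without resistant mouse 2. Macrophage markers had a mean of 3.00 to 5.56 on EC arrays and 0.47 to 2.80 on bulk arrays, while 14 of 17 T and NK markers were lower in EC, and their part in the interferon differences was not tested.

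**Figure D5:**
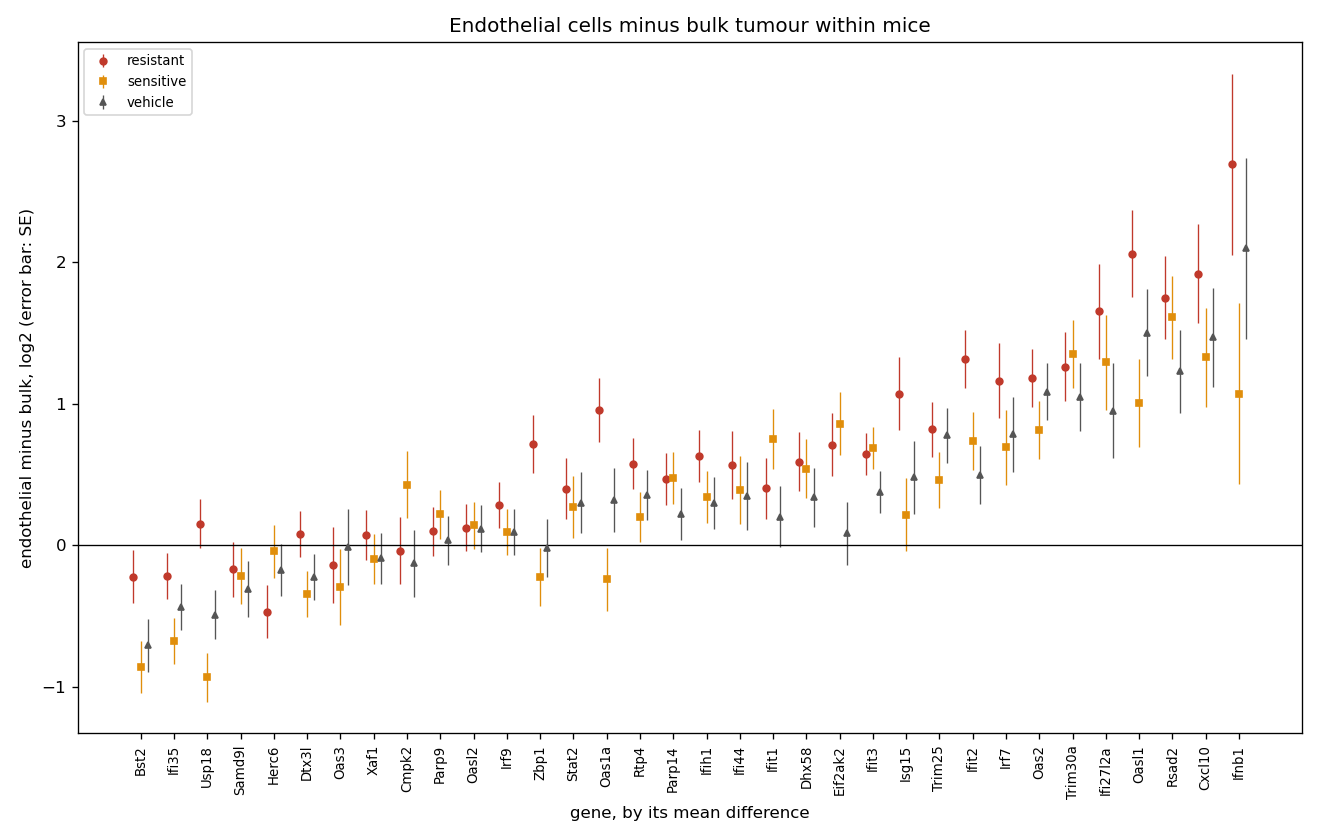
Endothelial minus bulk difference within mice for 34 genes (log2, error bars are limma's SE, 4 mice a group) in resistant, sensitive and vehicle tumours, ordered by the mean difference. Rsad2, Cxcl10, Oasl1, Ifi27l2a and Ifnb1 lie above 0 in all 3 groups (the vehicle value of Ifnb1 includes a bulk array not well above background), and Bst2, Ifi35 and Samd9l lie below 0 in all 3.

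Other genes of the pathway were taken from a list of 101, of which 92 were on the array. In resistant against vehicle EC, 20 of the 91 tested rose and 13 fell, where 17.6% of all genes rose and 26.9% fell. Of the receptor genes, Ifnar1 and Ifnar2 had -0.008 and 0.529 without passing (limma adjusted p = 0.976 and 0.0982). Tlr7, an endosomal RNA sensor gene, had 0.297 (limma adjusted p = 0.633). The largest rises were those of Ms4a4c, Sp110 and Tor3a, interferon-induced genes, with 1.31, 1.23 and 1.11. Of the other interferon ligand genes, 10 of 13 tested fell, Ifna1 by 1.42, Ifna14 by 2.45 and Ifnl3 by 2.33, all 3 well above background on all 12 EC arrays. Ifna7 was well above background on 0 of the 4 resistant arrays, and several others on 1 to 3 of them, while all but Ifne were so on all 4 sensitive and all 4 vehicle arrays. Interferon alpha genes are near-identical copies, so signal between them is uncertain. The low share of probes above background on these arrays lies beside these falls, and its part in them was not tested.

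At 600 mm3, 4 of 91 of these genes fell and 0 rose, led by Phf11b with -1.99, Oas1f with -1.89 and the DNA sensor gene Aim2 with -1.57, and 68 of 91 were negative with a median of -0.474. Ifnar2 had -0.909, Ifnar1 -0.471 and Tlr7 -0.312, and none of these passed (limma adjusted p = 0.148, 0.417 and 0.817). At day 9, 0 of 91 were called in limma and 59 were positive, with Ifnar1 at 0.901 (limma adjusted p = 0.736). In EC against bulk 35 of 92 were higher and 11 lower, where 21.2% and 28.2% of all genes were. Among them were Slfn5 with 2.96, Tlr7 with 1.72, Ifnar2 with 0.973 and Ifnar1 with 0.295, all higher. A list of 25 interferon-gamma response genes had 13 higher and 0 lower in resistant against vehicle EC, where 17.6% of all genes were higher and 26.9% lower, with a median of 0.840. At 600 mm3 it had 3 lower and 0 higher, where 1.11% and 0.533% of all genes were, with a median of -1.33.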

How the data were processed

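RNA of 32 samples was measured on Agilent single-colour mouse arrays. The deposited scanner output gives, per the file headers, a processed intensity for every spot on a linear scale from Feature Extraction 10.7.3.1, from which each array's own background had been subtracted but with no scaling to other arrays; the submitters' processing notes name version 9.1. The deposited table of normalised intensity values, made by the authors in R by a method not given in the sources used here, served as an alternative; its column medians lie between 120 and 125.6, and the columns correlate with the scanner signals at 0.966 to 0.991, so the scale is linear and the direction that of the signal, while the centring method stays unknown.

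Control and flagged spots (99 to 338 an array) were left out, none was saturated, and spots of 1 probe were averaged, leaving 55681 probes. The files give no symbols: 26582 probes were named by RefSeq accession through a RefSeq table of build GRCm38.p6, giving 20145 genes. A gene's value is log2 of the processed signal minus the array's 75th percentile, for its probe with the highest mean. Genes entered a fit when well above background on at least 4 arrays (2 for the smaller tumours); all 34 matched genes did in every fit. limma 3.58.1 in R 4.3.3 (with data.table, version 1.17.8) was fitted across all genes and unnamed probes, with Benjamini-Hochberg adjustment over genes and a threshold of 0.05, on 12 EC arrays, 12 bulk arrays, 8 arrays of smaller tumours, 20 bulk arrays, or 24 arrays with mouse as a block. The procedure was tested on simulated data. Replicates are separate mice, numbered in the labels; the number of arrays limits the precision. Both fractions of a tumour share its mouse number in the labels, and their deviations from group means correlated at 0.072 to 0.518, each EC array best with the bulk array of its own mouse in 9 of 12 mice; the lowest value was that of resistant mouse 4, and without this mouse EC against bulk had 23 genes called, as with it.

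Named were, per comparison, the 6 called genes with the largest difference (where under 3 were called, the 3 with the smallest p), always Ifnb1, Irf7, Irf9, Stat2, Isg15, Ifit1, Oas1a, Rsad2 and Cxcl10, and of other pathway genes always Ifnar1, Ifnar2 and Tlr7 with at most 3 more, while 1 gene is not reported here; further genes were named after their values were seen. The genes and lists were chosen with earlier results of these data known. Alternatives were quantile scaling, normexp (offset 50, on median signals), the deposited values, other percentiles, filters, the mean of all probes, array weights, 1 fit over 32 arrays, blocks and leaving out each array.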

Additional observations from a re-analysis of the deposited data

Results flagged for a closer look

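Within groups of 4 arrays, 204 sets of levels were checked for a single array whose gap to the nearest other was large for the range of its group, by Dixon's criterion at 95%, and 12 stood apart; chance gives about 1 in 20 sets. In vehicle EC, mouse 2 was low for Ifit2 at -0.48 (the others 0.37 to 0.47), for Oas1a at 4.19 (5.38 to 5.63) and for Eif2ak2 at -0.05 (0.63 to 0.70), and mouse 3 was high for Parp9 at 3.04 (2.50 to 2.59). In sensitive bulk, mouse 4 was low for Irf9 at 2.55 (3.09 to 3.19), for Stat2 at 2.09 (2.94 to 3.03) and for Oasl2 at 2.45 (3.49 to 3.67). In resistant bulk, mouse 2 was low for Stat2 at 3.15 (3.77 to 3.80) and for Eif2ak2 at 0.18 (1.10 to 1.29), and mouse 4 was low for Oas1a at 4.29 (4.92 to 5.01). In vehicle bulk, mouse 3 was low for Ifnb1 at -5.67 (-1.82 to -1.49), where it was not well above background, and high for Zbp1 at 3.72 (2.99 to 3.1).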

How the results depend on the processing

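No called difference of a gene changed direction under any alternative. Counts of called genes moved as follows, with the count called among all genes tested in brackets, except for fits with arrays left out. In resistant against vehicle EC the 13 became 7 with quantile scaling, 7 with the deposited values and 6 with the percentile over probes above background on all arrays, and leaving out single arrays gave 8 to 14. In resistant against sensitive EC the 11 (7903 of 17946) became 6 (6055) with quantile scaling, 7 (6576) with that percentile and 17 (8016) with the replicate block. Leaving out single arrays gave 8 to 17. At 600 mm3 the 6 (287 of 17443) became 10 (384) with normexp, 10 (413) with the deposited values and 14 (890) with array weights. With no filter, where more genes were tested, the count was 1 (117 of 20145). With normexp 1 of 34 differences was positive. Of all genes called at 600 mm3, 32.4% were higher in the main setting, 21.1% with the deposited values and 55.6% with no filter. The 600 mm3 minus day 9 effect had 3 (72 of 17443) with normexp, 1 (31) with the deposited values and 3 (40 of 19098) with 1 fit over 32 arrays. Its median over the 34 genes ran from -2.25 to -1.44 with single arrays left out. The 1300 mm3 minus 600 mm3 effect had 11 (510 of 18565) with array weights. Its median over the 34 genes ran from 0.991 to 1.387 with single arrays left out. Resistant bulk against sensitive had 1 (2552 of 16969) with quantile scaling, 2 (2895) with the deposited values and 1 (1398 of 13065) with genes above background on every array. It had 7 (7326 of 16969) with array weights, 4 (3705 of 19098) with 1 fit over 32 arrays, and 0 to 4 with arrays left out. Against vehicle it had 1 (791 of 13065) with genes above background on every array and 9 (7183 of 16969) with array weights. With 1 fit over 32 arrays that count was 3 (2670 of 19098), and with arrays left out 0 to 2. EC against bulk gave 4 (922 of 14243) in resistant tumours within 1 slide and 9 to 18 with mice left out. In sensitive tumours it gave 6 to 16 with mice left out. In vehicle tumours it gave 15 (5746 of 18280) with the deposited values and 13 (4846 of 12131) with genes above background on every array. There it gave 20 (9389 of 18280) with array weights and 3 to 13 with mice left out. The causes were not tested.

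Mouse numbers do not pair treatment groups. With the replicate block the counts, with those among all genes in brackets, were 14 (7982 of 17946) in resistant against vehicle EC and 5 (304 of 17443) at 600 mm3. They were 0 (0 of 17443) at day 9 and 0 (320 of 16969) in resistant against vehicle bulk. Without the mouse block EC against bulk had 19 (8677 of 18280) in place of 23 (9026). The percentile over averaged probes, chosen after seeing the data, gave 14 (8571 of 17946) calls in resistant against vehicle EC. It gave 15 (8557 of 17946) in resistant against sensitive EC and 6 (276 of 17443) at 600 mm3. Signal over background limits Ifnb1, which was measured on 25 of 32 arrays.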
